A study of Mus musculus with 8 samples.

Results

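The interleukin 2 (IL-2) receptor and STAT5 axis was followed through 10 genes in regulatory T cells (Tregs) sorted from the peripheral blood of mice. The genes were taken by name from a table of read counts over 56980 genes. They are the receptor chains Il2ra, Il2rb, Il2rg and Il7r, the kinases Jak1 and Jak3, the transcription factors Stat5a and Stat5b, and the feedback inhibitors Socs1 and Cish. RNA-seq libraries of 4 samples after high-altitude de-acclimatization (HADA) were compared with those of 4 control samples, to ask whether this signalling axis differed in HADA Tregs. Male C57BL/6j mice, 8 weeks old on purchase, had lived in a hypobaric chamber at a simulated 6000 m for 28 days and were then returned to normoxia, which makes the HADA group. Control mice stayed outside the chamber, and all animals were of the same strain and sex. The day after return on which these Tregs were sorted, and whether 1 library held cells of 1 animal or of several, are not given in the sources used here. The p-values below therefore measure the spread between these libraries, which may in part be technical.

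IL-2 is bound by a receptor of up to 3 chains. Il2ra encodes CD25, the chain that raises the affinity for IL-2 and by which Tregs are commonly sorted, while Il2rb and Il2rg encode the signalling chains, and Il2rg, the common gamma chain, is shared with the receptors for IL-4, IL-7, IL-9, IL-15 and IL-21. Jak1 and Jak3 sit on these chains and phosphorylate STAT5, which enters the nucleus and drives genes that Tregs need for survival and for FOXP3 expression. Socs1 and Cish are themselves switched on by STAT5 and damp the signal. Il7r encodes CD127, the IL-7 receptor chain, whose surface level is typically low on Tregs and high on naive conventional T cells.

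The libraries differed widely in depth and content, and every value below has to be read with that. Total counts ran from 22929193 to 28240337 in HADA and from 14452433 to 22584062 in control replicates 2 to 4, while control replicate 1 held 1477431. A gene needed 3 counts to be taken as seen, which is 1.86 CPM (counts relative to a common library size, scaled by edgeR's TMM method) in control replicate 1 and 0.0939 to 0.180 CPM in the other 7 libraries. The summed level of 8 general T cell genes (Cd3d, Cd3e, Cd3g, Cd4, Trac, Cd2, Cd5, Lck) was 2283 to 8336 CPM in HADA and 103 to 2522 CPM in control, with control replicate 2 lowest. Of 8 Treg genes, Foxp3 and Tnfrsf18 were listed at 0 in every library and lie wholly (100% of their span) inside another annotated gene, so the defining Treg factor could not be used to check the sort, and the summed level of the others was 638 to 2068 CPM in HADA and 225 to 583 CPM in control. In control replicates 2 to 4, Ikzf2 alone gave 210.9, 286.6 and 271.5 of the summed 224.7, 343.6 and 426.5 CPM. There Tnfrsf4 was at 0.344, 0.489 and 0.464 CPM and Tigit at 2.72, 29.1 and 111.8 CPM. Genes of B cells (963 to 3283 CPM in HADA, 99.1 to 2599 in control), myeloid cells (829 to 3439 and 80.5 to 1734), CD8 T cells (14.5 to 176 and 0.621 to 2.76), platelets (267 to 1662 and 42.3 to 470), NK cells (3.31 to 391 and 9.05 to 106) and naive conventional T cells (2849 to 5569 and 184 to 3238) were also counted, and those of erythroid cells were 145 to 2806 CPM in HADA and 1025 to 28310 in control. The part these contents play in the values of the 10 genes was not tested, and in bulk libraries fewer cells of a type and less RNA per cell cannot be told apart.

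No member of the axis passed the thresholds between HADA and control Tregs. Of the 10 genes, 9 entered edgeR's quasi-likelihood test, and 0 of these 9 were called higher and 0 lower at a Benjamini-Hochberg adjusted p under 0.05 with a log2 fold change beyond 1, against 1.65% of all 21991 tested genes called higher and 0.477% called lower. The fitted log2 fold change was above 0 for all 9 in this fit, with a median of 2.13 beside 0.02 over all tested genes. The sign for Stat5b and Il7r changed under other settings, and relative to T cell genes so did that for Jak1 and Jak3. The same fit was above 0 for 8 of 8 T cell genes and 6 of 6 genes of naive T cells. It was also above 0 for 5 of 5 tested B cell genes, 6 of 7 of myeloid cells and 4 of 4 of platelets, but for 0 of 5 of erythroid cells. This direction was thus not particular to the axis. At an unadjusted p under 0.05, Il2ra and Cish were higher, 2 of 9, where 12.0% of all genes were. In none of the 9 did the 4 HADA libraries all lie above the 4 control libraries, a pattern seen in 9.13% of all tested genes. For all 9, control replicate 1 reached at least the lowest HADA library. For Socs1 this was fixed in advance, since that HADA library held 0 counts. For Jak3 and Cish any read would do, since 1 count in control replicate 1 is 0.621 CPM and the lowest HADA values were 0.120 and 0.434 CPM. Control replicate 1 held 3 Jak3 counts and 2 Cish counts.

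The calls turned on control replicate 1 and on the test. Without control replicate 1, edgeR called 4 of the 9 members higher, Il2ra, Stat5a, Socs1 and Cish, and 0 lower, against 15.5% of 24048 genes called higher and 19.7% called lower. DESeq2, run on all 8 libraries, called 2 of the 9 higher, Il2ra and Cish, where it called 11.6% of 21158 genes higher and 20.1% lower. All 4 HADA libraries lay above control replicates 2 to 4 for 4 of the 9 members, Il2ra, Il2rb, Jak1 and Stat5a, beside 18.4% of all tested genes.

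**Figure D1:**
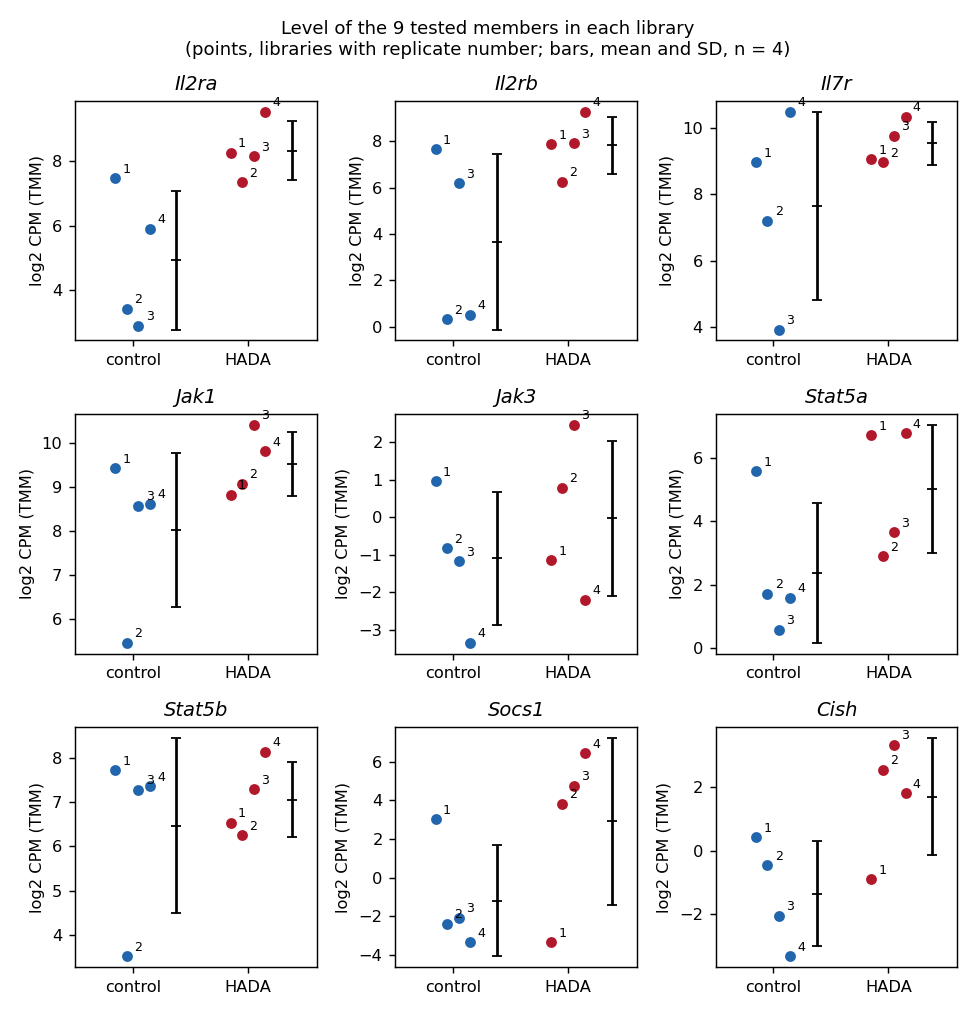
Level of the 9 tested members in each library, as log2 CPM after TMM scaling with a prior count of 2 (vertical axes), for 4 control (blue) and 4 HADA (red) libraries marked with their replicate numbers; black bars are the mean and SD of 4 libraries. Control replicate 1 reaches the level of the lowest HADA library or more for all 9 members, and control replicate 2 is the lowest library for Jak1 and Stat5b. The lowest HADA library of Socs1 holds 0 counts, and control replicate 1 holds only 3 counts of Jak3 and 2 of Cish.

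Il2ra, whose product CD25 marked the Tregs sorted for the study's co-culture assay, was measured at 309, 163, 287 and 748 CPM in HADA replicates 1 to 4. In control replicates 1 to 4 it was 178, 10.5, 7.23 and 59.5 CPM. On a log scale the control libraries spread wider than the HADA libraries, and control replicate 1 exceeded HADA replicate 2, so that the groups overlapped by a single library. HADA libraries averaged 377 ± 256 CPM (SD, n = 4), against 63.7 ± 79.7 CPM (SD, n = 4) for the controls, and the log2 fold change was 2.57 with a standard error of 1.05 (edgeR, adjusted p = 0.156). Without control replicate 1 it was 3.98 with a standard error of 1.06 (edgeR, adjusted p = 0.0261), and DESeq2 on all libraries gave 2.503 (adjusted p = 0.0205). The gene lies on chromosome 2 at 11647618 to 11698004 of GRCm39, plus strand, and only 0.836% of its span is shared with another gene.

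Il2rb, the beta chain that carries the signal into the cell and also serves IL-15, was at 237, 76.1, 240 and 622 CPM in the HADA libraries. The control libraries gave 201, 1.16, 73.1 and 1.33 CPM. The controls were thus split, replicates 2 and 4 holding 37 and 23 counts and replicate 1 lying inside the HADA range, whose median was 238 CPM. The log2 fold change of 2.09 had a standard error of 1.37 and did not pass (edgeR, adjusted p = 0.312), nor did it without control replicate 1 (3.67, adjusted p = 0.110).

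Il2rg, the common gamma chain, was listed at 0 counts in all 8 libraries. Its span on the X chromosome (100307984 to 100311861 of GRCm39, minus strand) and its exons are covered to 100% by another annotated gene without a symbol, and Foxp3, Tnfrsf18, Ms4a1 and Alas2, which are covered in the same way, were at 0 as well. The zero therefore gives no level for the gamma chain, and the gene was left out of the test.

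Il7r, the chain for IL-7, was measured at 535, 501, 866 and 1287 CPM in HADA and at 501, 147, 15.1 and 1433 CPM in control. The highest and the lowest of the 8 libraries were both controls, replicates 4 and 3. The log2 fold change was 0.61 with a standard error of 1.02 (edgeR, adjusted p = 0.698), and single libraries moved it, to 1.91 without control replicate 4 and to 0.20 without control replicate 3. It was -0.04 when a background measured on unexpressed genes, described below, was subtracted and had the same value when all libraries were drawn down to the smallest total.

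Jak1, the kinase on the beta chain and on many other cytokine receptors, was at 452, 536, 1358 and 893 CPM in HADA. Its values in control were 685, 43.7, 379 and 392 CPM. HADA replicates 1 and 2 lay below control replicate 1 and above the other controls, and the log2 fold change of 1.11 (standard error 0.81) did not pass the test (edgeR, adjusted p = 0.360).

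Jak3, the kinase that binds the gamma chain and is largely restricted to blood cells, was low in every library. Its counts were 9, 39, 92 and 2 in the HADA libraries and 3, 15, 10 and 0 in control, or at most 5.43 CPM. HADA replicate 4, the library with the highest Il2ra and Il2rb, had the lowest Jak3 of the HADA group. The log2 fold change was 2.19 with a standard error of 1.23 (edgeR, adjusted p = 0.251), but 0.98 without HADA replicate 3 and 0.54 in limma. Another gene, Insl3, overlaps 18.7% of the Jak3 exon bases.

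The STAT5 paralogs behaved differently from each other across libraries. Stat5a was measured at 106, 7.37, 12.6 and 111 CPM in HADA and at 47.9, 3.19, 1.40 and 2.90 CPM in control. HADA replicates 1 and 4 formed a high pair, HADA replicates 2 and 3 were lower than control replicate 1, and the remaining controls were lowest. The log2 fold change was 2.13 with a standard error of 1.31 (edgeR, adjusted p = 0.287), and 4.71 with a standard error of 1.22 without control replicate 1 (edgeR, adjusted p = 0.0242).

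Stat5b, in contrast, was at 92.7, 76.4, 157 and 282 CPM in HADA and at 211, 11.4, 155 and 164 CPM in control. Apart from control replicate 2, the controls lay inside the HADA range, and the log2 fold change was 0.17 with a standard error of 0.87 (edgeR, adjusted p = 0.907). Its direction was not fixed by these data, since it was -0.46 when the fit kept genes of 10 or more counts in all libraries and -0.22 without control replicate 2. Both genes lie next to each other on chromosome 11 in opposite orientation, Stat5b at 100671557 to 100741550 (minus) and Stat5a at 100750177 to 100775995 (plus) of GRCm39. Of the distinct stretches of 100 bases in their annotated transcripts, 2.88% for Stat5a and 2.80% for Stat5b occur in the other paralog too, so that reads there may have been split or dropped.

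Socs1, an inhibitor that blocks JAK activity, was at 0, 13.99, 26.8 and 85.7 CPM in HADA. In control it was at 8.08, 0.0939, 0.140 and 0 CPM, from 13, 3, 4 and 0 counts. HADA replicate 1 held no Socs1 read among 28240337 counts, where 3 counts would be 0.118 CPM, and it thus sat with control replicate 4 at the bottom of both groups. The log2 fold change was 4.21 with a standard error of 2.13 (edgeR, adjusted p = 0.215). Without control replicate 1 it was 8.63 with a standard error of 2.47 (edgeR, adjusted p = 0.0314), a value that depends on how near-zero counts are moderated.

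Cish, the STAT5-induced inhibitor that competes for docking sites on the receptor, had the smallest p of the members. It was at 0.434, 5.82, 10.2 and 3.43 CPM in HADA, from 11, 139, 172 and 57 counts. In control it was at 1.24, 0.626, 0.140 and 0 CPM, from 2, 20, 4 and 0 counts. HADA replicates 2 to 4 were above every control and HADA replicate 1 was below control replicates 1 and 2. The log2 fold change was 3.78 with a standard error of 1.22 (edgeR, adjusted p = 0.106), 4.35 without control replicate 1 (edgeR, adjusted p = 0.0375) and 3.48 in DESeq2 (adjusted p = 0.00417). Of the Cish exons, 40.9% are overlapped by the predicted genes Gm17040 and Gm17041, and since fully overlapped genes were at 0, the Cish counts may leave out reads from these bases.

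Cish and Il7r are also the members whose start regions hold the letters of the STAT5 recognition motif, TTCNNNGAA, which reads the same on both strands. The regions searched run from 250 bases before to 50 bases after each transcript start and come from RefSeq on the build GRCm38.p6, where 9 of the 10 members had an entry. The motif stands in 8.33% of 32544 such regions and stands there at least 2 times in 0.461%. Cish holds it at bases 1 to 9 and 12 to 20 of the transcript and Il7r at bases -142 to -134, and the other 7 members with an entry do not hold these letters in this window. Both stretches are shown because these are the members with a match and Cish gave the smallest p, with the motif in capitals, the Cish stretch at chr9:107296609-107296687 (plus strand) and the Il7r stretch at chr15:9529977-9530046 (minus strand).
Cish: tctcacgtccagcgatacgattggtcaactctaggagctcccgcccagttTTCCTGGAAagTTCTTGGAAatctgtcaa
Il7r: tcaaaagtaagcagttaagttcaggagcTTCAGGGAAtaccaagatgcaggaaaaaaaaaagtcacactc

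The 2 adjacent copies in Cish are 11 bases apart from start to start, while Il7r has a single copy. The presence of these letters is a description of the sequence, and no binding was measured in these libraries.

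**Figure D2:**
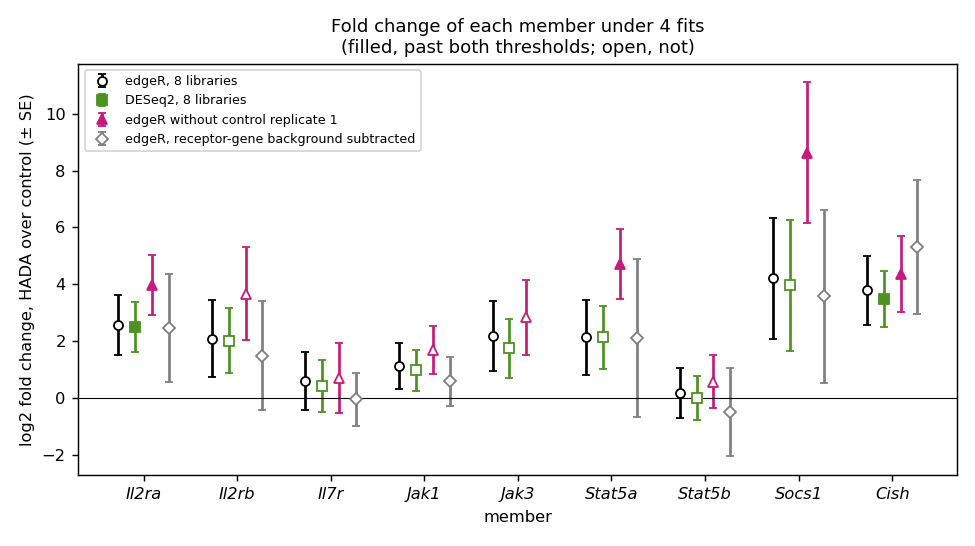
Log2 fold change of HADA over control with its standard error (vertical axis) for the 9 tested members, in edgeR and DESeq2 on all 8 libraries, in edgeR without control replicate 1 and in edgeR after subtracting the receptor-gene background, where Jak3 was not tested. Filled symbols passed both thresholds: Il2ra and Cish in DESeq2, and Il2ra, Stat5a, Socs1 and Cish without control replicate 1.

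To compare levels between genes, CPM were divided by the length of the annotated exons. In HADA the order of the means was Il7r (171 CPM per kb of exon), Jak1 (80.2), Il2rb (68.5), Il2ra (65.9), Stat5b (22.1), Socs1 (10.9), Stat5a (7.23), Cish (0.773) and Jak3 (0.259). In control it was Il7r (112.3), Jak1 (37.2), Stat5b (19.7), Il2rb (16.2), Il2ra (11.2), Stat5a (1.69), Socs1 (0.715), Jak3 (0.0921) and Cish (0.0782). The ranges of every pair of neighbours in either order overlapped between libraries. Within single HADA libraries, however, Il7r was above Jak1, Il2ra above Stat5b, Stat5b above Socs1 and Cish above Jak3 in 4 of 4. In the control libraries the same was true of Jak1 over Stat5b, Il2ra over Stat5a and Stat5a over Socs1. Stat5a and Socs1 were under the background described below in control replicates 2 to 4, Il2ra in replicates 2 and 3, and Stat5b in replicate 2. In HADA, Jak3 was under it in replicates 1, 2 and 4, and Socs1 and Cish were under it in replicate 1. Where such values enter, the order does not show an order of expression. Per kb of span Socs1 was above Stat5a in 1 of 4 controls. Because reads were counted over whole gene spans, introns included, the order changes when the span is used as the length, and Socs1, a gene with almost no intron, then moved to the third place in HADA at 9.59 CPM per kb of span. Stat5a was below the lowest library of Il2ra, Il2rb, Il7r and Jak1 in HADA per kb of exon (at most 13.6 against at least 17.7), but per kb of span it reached 4.30, above the lowest Il2ra (3.23) and the lowest Jak1 (4.0).

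Counts over whole spans also include reads that do not come from the gene's mRNA. Their density was estimated in each library from 1587 odorant and vomeronasal receptor genes, which share no bases with another gene and are not known to be used by T cells. It was 0.120 to 0.209 CPM per kb of span in HADA, 0.0492 in control replicate 1 and 0.202 to 0.337 in control replicates 2 to 4. Multiplied by each member's span, it gave the count to set beside the observed one. Some counts fell far under this estimate, such as Socs1 in HADA replicate 1 (0 against 17.4) and Il2rb in control replicate 2 (37 against 172). The density is thus too high for some spans, and a count under it is not shown to be background.

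Much of the low end of the axis in control did not exceed this background. In control replicates 2, 3 and 4 the observed count was at or under the background count for 7, 5 and 5 of the 9 members, in control replicate 1 for 0 of 9, and in the HADA libraries for 5 of 36 values. Il2ra had 29.4, 17.6, 33.7 and 124 times the background in HADA and 71.8, 0.620, 0.499 and 5.83 times in control, so that the 336 and 207 Il2ra counts of control replicates 2 and 3 were fewer than the 542 and 415 of the background. Stat5a exceeded it 1.56 to 35.9 times in HADA, but in control only in replicate 1. Jak3 was at or below it in all libraries but HADA replicate 3 and control replicate 1, where it was 2.25 and 2.66 times the background. Il7r was above it in all 8 libraries.

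With the background subtracted, 8 members could be tested and 0 of them passed, among 9042 genes of which 1.24% were called higher and 1.12% lower. The log2 fold changes were then 2.46 for Il2ra, 5.31 for Cish and -0.49 for Stat5b, while the median over all genes tested moved to 1.004, so that relative to that median Il2ra was higher by 1.45 and Stat5b was at -1.49.

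**Figure D3:**
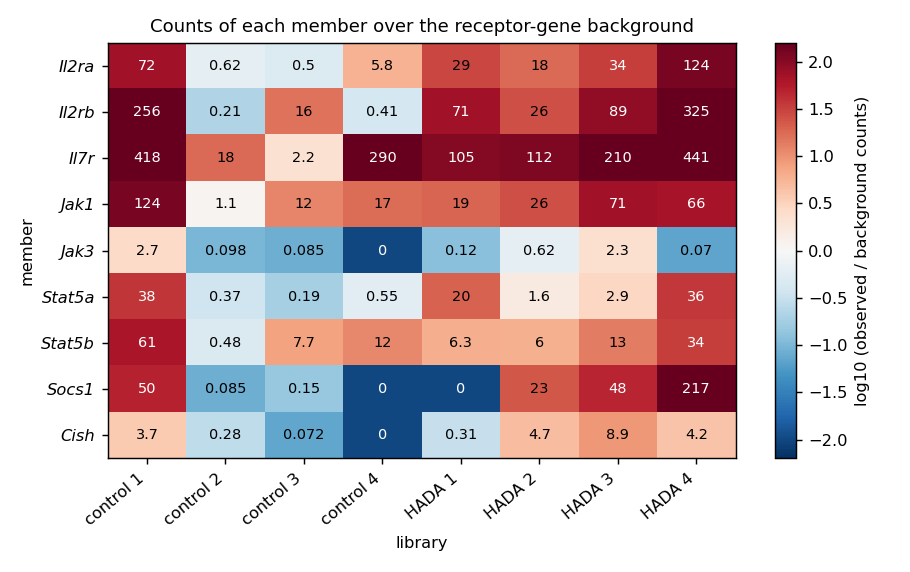
Observed counts divided by the background counts for each tested member (rows) and library (columns), printed in the cells and coloured on a log10 scale, with values under 0.01 coloured as 0.01. Il7r exceeds the background in all 8 libraries, and control replicates 2 to 4 hold most of the values below 1.

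Ratios within a library do not depend on scaling between libraries. CD25 and CD127 are surface proteins commonly used to tell Tregs from other CD4 T cells. The study gated human Tregs by both, but defined the mouse Tregs of its co-culture assay by CD4 and CD25. For the transcripts of these proteins, the log2 ratio of Il2ra to Il7r counts (0.5 added to each) was -0.79, -1.62, -1.60 and -0.78 in HADA. In control it was -1.49, -3.80, -1.06 and -4.59. Control replicates 1 and 3 fell inside the HADA range and the others well below it, although the Il2ra count of control replicate 3 was under its background. HADA averaged -1.20 ± 0.47 (SD, n = 4) against -2.74 ± 1.72 (SD, n = 4) for the controls, and the difference of 1.54 did not exceed what regrouping gives (exact two-sided permutation test, p = 0.171, adjusted over 2 ratios 0.343, where 4 libraries against 4 cannot go below 0.0286). With the background subtracted from both genes the difference was 5.85 (exact two-sided permutation test, p = 0.0857), where control replicates 2 and 3 had no Il2ra count left and the value depends on the 0.5 added.

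The share of STAT5 counts on Stat5b was 46.7%, 91.2%, 92.6% and 71.7% in HADA and 81.5%, 78.1%, 99.1% and 98.3% in control. In control replicates 2 to 4 the Stat5a counts of 102, 40 and 50 were under the background counts of 278, 213 and 90.1. The Stat5b count of control replicate 2 was under it too (364 against 753). These control shares are thus no measure of the paralog balance above the background estimate. Each share lay within 4.0 percentage points of its 95% Wilson bounds, which cover counting error only. By these bounds HADA replicates 1 and 4 differed from each other and from replicates 2 and 3, whose own bounds overlapped. HADA replicates 1 and 4, the pair with high Stat5a, had the lowest shares of all libraries. HADA averaged 75.6% ± 21.5 (SD, n = 4) against 89.3% ± 11.0 (SD, n = 4) for the controls, and the difference of -13.7 points did not exceed what regrouping gives either (two-sided exact permutation test, p = 0.343, adjusted over 2 ratios 0.343).

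**Figure D4:**
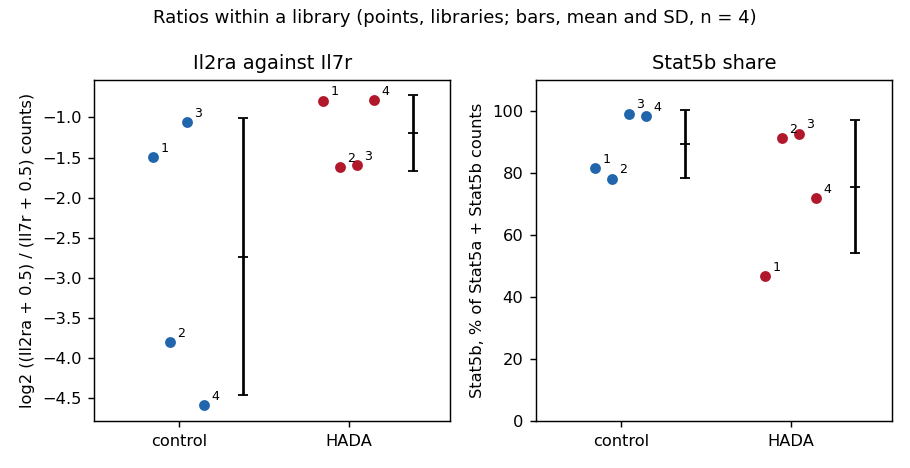
Log2 ratio of Il2ra to Il7r counts (left) and percent of Stat5a and Stat5b counts that lie on Stat5b (right) in 4 control (blue) and 4 HADA (red) libraries with their replicate numbers; bars are the mean and SD. The groups overlap in both ratios, with control replicates 2 and 4 lowest on the left and HADA replicate 1 lowest on the right at 46.7%. On the right, the Stat5a counts of control replicates 2 to 4 and the Stat5b count of control replicate 2 were under the background estimate.

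Since T cell genes as a whole were lower in control replicates 2 and 3, the members were also set against the summed counts of the 8 T cell genes in the same library, a scaling chosen after seeing the data. On this scale Il2ra was at 91.9, 71.3, 45.1 and 89.7 counts per 1000 T cell gene counts in HADA and at 70.5, 102, 8.80 and 24.8 in control. Stat5b was at 27.5, 33.5, 24.7 and 33.8 in HADA and at 83.8, 111, 189 and 68.6 in control. Il2ra thus overlapped between the groups, whereas Stat5b was lower in every HADA library than in any control, as were 10.1% of all tested genes on this scale. The Stat5b value of control replicate 2 comes from 364 counts against 753 of background, so it does not exceed the background estimate. For Il2ra this holds in control replicates 2 and 3, with 336 and 207 counts against 542 and 415 of background. The mean log2 ratio differed between HADA and control by 1.02 for Il2ra and by -1.82 for Stat5b, and it was also below 0 for Il7r (-0.52), Jak1 (-0.90) and Jak3 (-1.03).

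**Figure D5:**
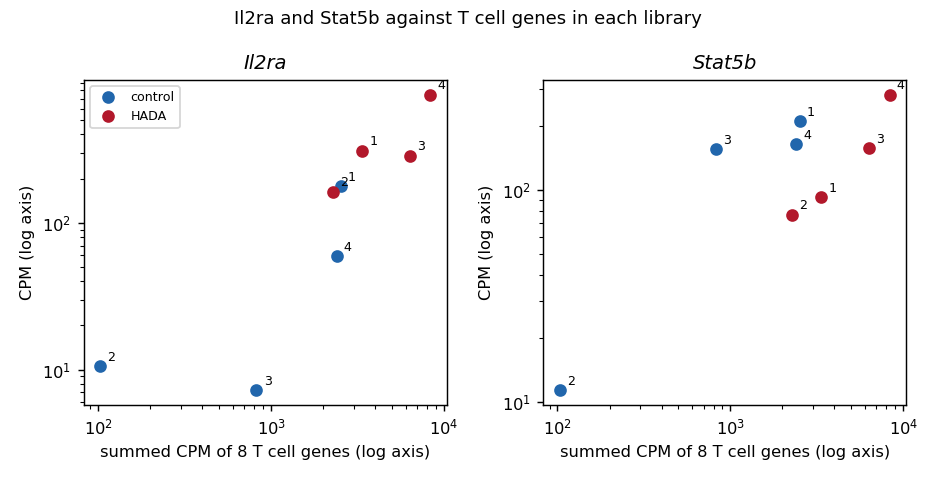
CPM of Il2ra (left) and Stat5b (right) against the summed CPM of 8 T cell genes, both on log axes, with 1 point per library and its replicate number. The libraries with the lowest summed T cell CPM, control replicates 2 and 3, also have the lowest Il2ra, and Stat5b is higher in control replicates 1 and 4 than in HADA replicates 1 and 2, which lie near them in T cell level.

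Other genes of the pathway were described by role from a list of 52, of which 47 were tested. By edgeR 0 of the 47 were called higher and 0 lower, and at an unadjusted p under 0.05 there were 8 higher and 3 lower, beside 12.0% and 14.7% of all genes. The median log2 fold change was 0.71 over the 47 against 0.02 over all genes, and 37 of the 47 were above 0, against 50.2% of all genes. Most of the tested marker genes of T cells, B cells, myeloid cells and platelets were above 0 as well, unlike those of erythroid cells. By role, the median was 0.24 for 6 ligands of common gamma chain receptors, 0.71 for 5 other receptor chains, 0.87 for 5 other STAT factors, 0.61 for 16 other SOCS proteins, phosphatases and inhibitors, and 0.61 for 14 STAT5 target genes. Of the 2 other JAK kinases, Jak2 alone was tested, at 0.69. Foxp3, the Treg lineage factor and a STAT5 target, was listed at 0 throughout and, being covered by another gene, could not be tested.

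Under the other settings some of these genes were called. DESeq2 called 9 of the 47 higher and 3 lower, and edgeR without control replicate 1 called 11 of 48 higher and 2 lower, to be read against the shares of all genes given above for the same fits. The genes named next were chosen after their values were seen, because the HADA and control libraries did not overlap in them, which was the case for 5 of the 47 with HADA higher (9.13% of all genes) and for 1 with HADA lower (5.7% of all genes). Bcl6, a repressor that STAT5 binds and a factor of follicular T cells, was at 351 to 447 CPM in HADA and at 9.02 to 120.5 in control, with a log2 fold change of 3.0 (edgeR, adjusted p = 0.0978). Bcl2, a survival gene, was at 331 to 467 CPM against 40.2 to 195 (2.04, edgeR, adjusted p = 0.119). Ctla4, an inhibitory receptor of Tregs, was at 254 to 784 CPM against 5.07 to 224 (2.81, edgeR, adjusted p = 0.138). Of the 14 STAT5 targets tested, 11 were above 0 in edgeR, while Pim1 (-0.18), Gzmb (-0.64) and Bcl2l1 were below it. The direction in which STAT5 acts on each target was not tested. Bcl2l1, a survival gene like Bcl2, was at 12.5, 48.4, 17.6 and 104 CPM in HADA and at 155, 10.3, 303 and 1132 CPM in control (-3.14, edgeR, adjusted p = 0.141). Its groups overlapped through control replicate 2, and it is named because DESeq2 called it lower (-3.38, adjusted p = 0.00689).

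The other 2 genes with HADA libraries all above control were Cblb, a ubiquitin ligase that restrains T cell activation (log2 fold change 1.91, edgeR, adjusted p = 0.132), and Stat4, the factor downstream of IL-12 (1.80, edgeR, adjusted p = 0.169). Il21, a ligand of a gamma chain receptor, was the gene with HADA libraries below control, at 0.180 to 0.473 CPM against 0.621 to 2.66 (-1.91, edgeR, adjusted p = 0.107), but the lowest control value is 1 count in control replicate 1, under the 3 counts taken as seen. Control replicates 2 to 4 held 85, 37 and 12 Il21 counts, where the background density was 10.8, 8.24 and 3.49 counts per kb of span. With the background subtracted Il21 did not enter the test, and whether its reads were background was not tested. Il2 itself was at 0.0789 to 4.33 CPM in HADA and 0 to 1.15 CPM in control, so the ligand of the axis was at most a few CPM in these libraries.

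The protein-coding genes whose log2 CPM followed Il2ra most closely over the 8 libraries were Cspp1, a centrosome and spindle protein (Pearson's r = 0.995), Rnf114, a ubiquitin ligase (0.991), Erp29, a chaperone of the endoplasmic reticulum (0.991), Lsm3, an RNA-binding protein (0.991), and Eef1e1, a part of the tRNA synthetase complex (0.989). These r are a description over libraries that share depth and content, and 776 of 16446 protein-coding genes had an r over 0.9. Among the members, Stat5a (0.856) and Il7r (0.806) were nearest to Il2ra and Jak3 (0.202) was farthest.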

How the data were processed

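The authors sorted Tregs from mouse blood, made cDNA with a kit for low input, used FastQC and Trimmomatic on the reads, mapped what was left to GRCm39 by STAR and ran featureCounts; strand and multi-mapping settings are not given in the sources used here. The deposited values are raw counts per gene, not normalized, over whole gene spans (100% of lengths equal the span), so reads from introns are included and genes covered by another gene are listed at 0. Groups and replicate numbers came from the labels. Symbols for 98.7% of 56980 identifiers came from GENCODE vM39, and coordinates from the deposited table.

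The counts were tested with edgeR 4.0.16 (TMM, filterByExpr, quasi-likelihood) in R 4.3.3 over 21991 genes without covariates, in place of the study's DESeq2. DESeq2 1.42.0 and limma 3.58.1 were alternatives, and the thresholds (adjusted p 0.05, log2 fold change 1) follow the study. Log2 CPM used a prior count of 2. The edgeR test reports no standard error, so the one given is the absolute log2 fold change divided by the square root of the F statistic. It is approximate. Single values were compared by exact permutation over libraries. Tables and plots were made with scipy 1.17.1, numpy 2.4.6, pandas 2.3.3 and matplotlib 3.10.9 in Python 3.11.15. The 10 genes, the lists and the tests were chosen with earlier results of these data known. The rule for names took all members, pathway genes called by edgeR on all libraries (none), Foxp3, and the 5 genes most correlated with Il2ra; other pathway genes were named after their values were seen. Alternatives changed the test, scaling, filter, depth, background, fold threshold, replicate block and libraries, 1 at a time, except that DESeq2 brought its own size factors and left 21158 genes with an adjusted p. Promoters came from RefSeq. Protein sequences were not used here.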

Additional observations from a re-analysis of the deposited data

Results flagged for a closer look

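One value stood far from the others of its group. Stat5b in control replicate 2 was at a log2 CPM of 3.52, while the other 3 controls lay between 7.28 and 7.72, a gap of 0.895 of the whole range of the group, which is above Dixon's 95% critical value for 4 values. The same library had the lowest summed T cell genes, 103 CPM, and its 364 Stat5b counts were fewer than the 753 of the background. In all, 22 groups of 4 libraries were examined, of which chance flags about 1.1.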

How the results depend on the processing

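Of 138 alternative values for the 9 members, 123 kept their direction and side of the threshold, 6 became significant and 9 changed sign. The 6 are Il2ra and Cish in DESeq2 and Il2ra, Stat5a, Socs1 and Cish without control replicate 1. Sign changes concerned Stat5b, at -0.002 with DESeq2, -0.003 with DESeq2 size factors in edgeR, -0.46 with 10 or more counts in all libraries, -0.61 with libraries thinned to the smallest total, -0.49 with the background subtracted, -0.23 without HADA replicate 4 and -0.22 without control replicate 2 (0.575 at the other end of the range, without control replicate 1), and Il7r, at -0.040 thinned and -0.038 with the background subtracted. Over T cell gene counts the values were -0.52 for Il7r, -0.90 for Jak1, -1.03 for Jak3 and -1.82 for Stat5b. The cause was not tested.

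Members called higher numbered 2 in DESeq2 and 0 to 4 when 1 library was left out, with 0 called lower throughout. Pathway genes called higher numbered 9 in DESeq2, 1 in limma (Bcl6, where 3.7% of all genes were higher) and 0 to 11 when 1 library was left out, and those called lower 3 in DESeq2, 1 with 10 or more counts in all libraries and 1 thinned (both Bcl2l1, where 1.57% and 1.05% of all genes were lower) and 0 to 2 when 1 library was left out. With 1 library left out, the difference in the Il2ra to Il7r ratio ran from 0.92 to 2.10. That in the Stat5b share ran from -19.4 to -4.08 percentage points. With the background subtracted the 2 differences were 5.85 and -17.4. The latter leaves out control replicate 2, which then had no STAT5 count left. No alternative brought the permutation p of either difference under 0.05. Libraries of the same number did not deviate together (r from -0.207 to 0.252), and with a replicate block 0 members were called, among 158 genes higher and 11 lower overall. DESeq2 size factors moved the median of all genes to -0.19, and fits without the filter to -0.37. The depth of control replicate 1 limits what can be seen there: 3 counts are 1.86 CPM, above every Jak3 and Cish value of the other controls.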
